A study of Mus musculus with 2 samples.

Results

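The citrate cycle and fatty acid oxidation genes were followed as a list of 37 genes, matched by symbol to identifiers without version among 43346 genes of the deposited tables. The list covers pyruvate entry (5 genes), the citrate cycle (14), fatty acid import (7) and beta oxidation (11). RNA came from skeletal muscle of newborn B6NCrl mice, an inbred C57BL/6N line, at postnatal day 0, with no treatment named in the labels. Each of 2 libraries was prepared from 13 pg of total RNA, an amount the labels equate with 1 cell, taken from an organ portion of 1 pup. Sex was not collected, and both biosamples carry the same donor entry. The libraries are biological replicates 1 and 2 of a single group, so no comparison between conditions exists and no test was made. Values are TPM, a relative transcript abundance that adjusts reads for transcript length, and the spread is the SD with n = 2. That spread joins animal, tissue portion and library preparation, which cannot be told apart. In bulk RNA, fewer cells of a type and less RNA per cell cannot be told apart either.

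Pyruvate enters mitochondria and is converted to acetyl-CoA by the pyruvate dehydrogenase complex, which pyruvate dehydrogenase kinases switch off. Fatty acids reach the same acetyl-CoA pool by another route: they are taken up, bound by carrier proteins, activated by acyl-CoA synthetases, passed across the mitochondrial membranes as carnitine esters and shortened by beta oxidation. The citrate cycle then oxidises acetyl-CoA and feeds electrons to the respiratory chain. Skeletal muscle is known for its own forms of several of these enzymes, and milk fat becomes a main fuel after birth.

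Replicate 1 held 32103374 expected counts and replicate 2 held 38977618. Added spike-in RNAs made up 9.44% of all TPM in the former and 4.54% in the latter. All 9 skeletal muscle markers, such as Acta1 and Myh8, were detected in both libraries, and of 5 heart markers Myl2, a gene of slow muscle as well, was detected in both at 223 and 338 TPM, while Nppa and Tnni3 had 0 counts in both. Adipocyte markers summed to 2875 TPM in replicate 1 and 1136 in replicate 2, with 6 of 8 detected in both and Lep at 0 counts. Endothelial markers summed to 596 and 265 TPM, with 6 of 10 detected in both. Macrophage markers summed to 633 and 271 TPM, with 4 of 6 detected in both and Adgre1 at 0 counts. Of 4 brown adipocyte markers, Cidea alone was detected, in replicate 1 at 99.7 TPM, and Ucp1, Elovl3 and Dio2 had 0 counts in both. The part of these cell types in the results was not tested.

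Most of the pathway was found in both libraries. Detection required 5 or more expected counts and a level no lower than 1 TPM. By this rule 32 of 37 members (86.5%) were detected in both libraries, beside 10% of all genes. Among genes detected in at least 1 library, 32 of 35 members and 48.7% of all genes were found in both. Among genes with a mean of at least 10 TPM the figures were 32 of 34 members and 63.2% of genes. Members stood above the typical detected gene: the median over all 37 was 226 TPM in replicate 1 and 241 in replicate 2, while detected genes had medians of 36.6 and 29.5. Of the 37 members, 13 were among the 500 highest of the 43346 genes in both libraries, and 23 were among the 1000 highest. How many genes of any kind these top sets shared was not counted.

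**Figure D1:**
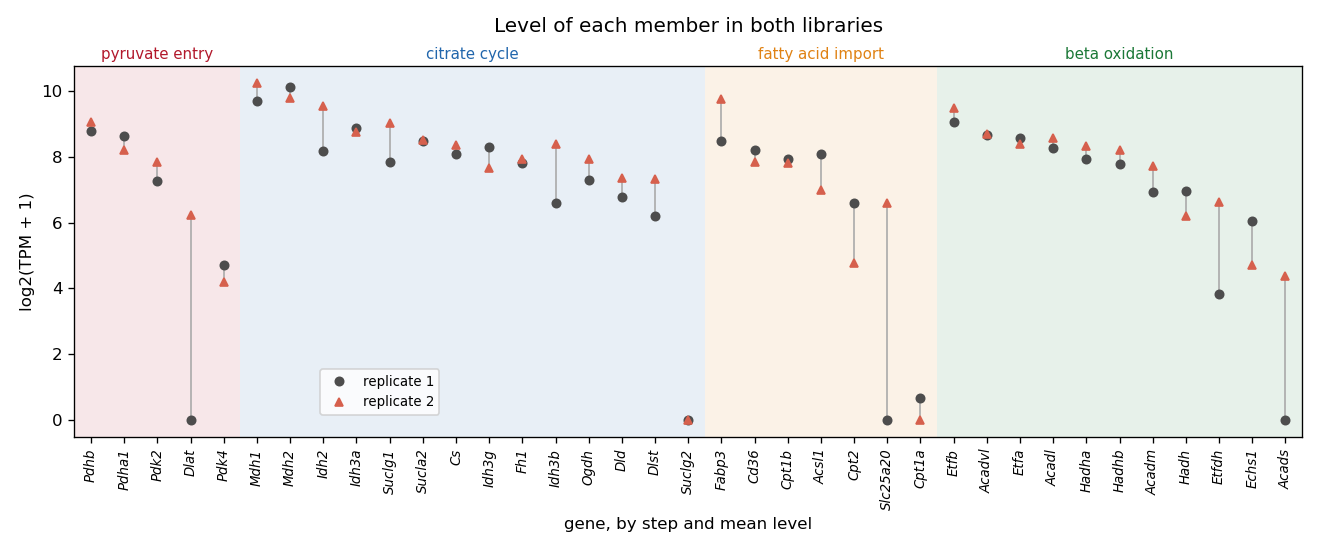
Level of each of the 37 members as log2(TPM + 1), grouped by step and ordered by mean level, with circles for replicate 1, triangles for replicate 2 and a line joining both. Most pairs lie close together above a value of 6, while Dlat, Slc25a20 and Acads are at 0 in replicate 1 and Suclg2 is at 0 in both.

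All members together took 1.03 ± 0.159% of TPM. The citrate cycle held the largest sum of the steps, 4494 TPM in replicate 1 and 5809 in replicate 2 (5152 ± 930.2). Beta oxidation followed with 2402 and 2894 TPM (2648 ± 348), then fatty acid import with 1256 and 1571 (1413 ± 223) and pyruvate entry with 1019.5 and 1150 (1085 ± 92.1). This order held in each library, and neighbouring steps did not overlap in their values, although the steps differ in their number of genes. Per gene the medians were closer, at 248 and 330 TPM for the citrate cycle, 218 and 295 for beta oxidation, 243 and 126 for import and 154 and 231 for pyruvate entry. In a pair of steps, 2 genes held a large share of the sum: Mdh1 and Mdh2 made 42.7% and 36.0% of the citrate cycle sum, and Cd36 and Fabp3 made 51.6% and 69.9% of the import sum. Without Cd36 and Fabp3 the import sum was 540.0 TPM, below pyruvate entry, and without Mdh1 and Mdh2 the citrate cycle sum was 3147 TPM, still above beta oxidation.

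**Figure D2:**
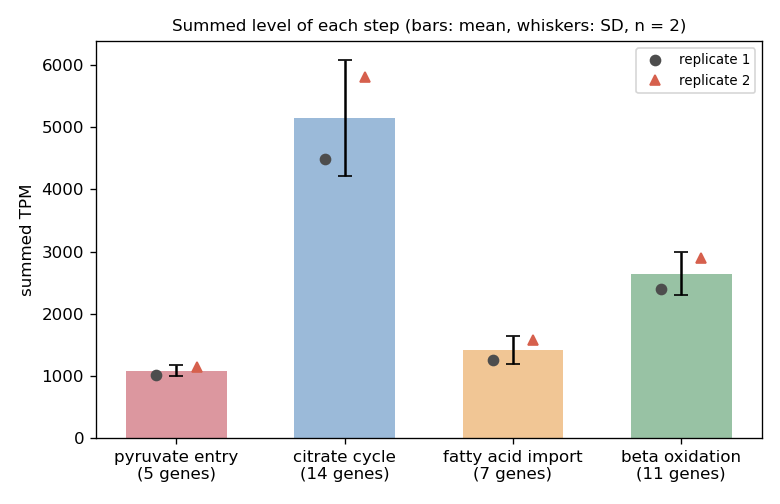
Summed TPM of the members of each step, with bars for the mean, whiskers for the SD over n = 2 and points for each library. The citrate cycle stands highest at 5152 and pyruvate entry lowest at 1085, in a linear scale from 0.

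The catalytic core of pyruvate dehydrogenase was uneven in its detection. Pdhb, the E1 beta subunit (chr14:8165996-8173025), had 443 TPM in replicate 1 and 531 in replicate 2. Pdha1, the X-linked E1 alpha subunit (chrX:160122209-160138413), had 397 and 296 TPM. Both subunits of E1 were thus high in both libraries, and Pdhb exceeded Pdha1 by 1.12-fold in replicate 1 and 1.79-fold in replicate 2, a log2 ratio of 0.50 ± 0.48. Dlat, the E2 acetyltransferase that forms the core of the complex (chr9:50634633-50659780), had 0 counts in replicate 1 and 5562 counts in replicate 2, where its level was 74.2 TPM. If a count of 0 allows up to 3 counts, here 0.114 TPM, Dlat was at least 650-fold higher in replicate 2. The authors' upper credibility bound for Dlat in replicate 1 was higher, at 0.822 TPM, which makes the least fold smaller. Such limits cover counting error only.

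The kinases that inhibit the complex were led by Pdk2. Pdk2 (chr11:95026258-95041354), a widely expressed kinase, had 154 TPM in replicate 1 and 231 in replicate 2. Pdk4 (chr6:5483351-5496309), which is known to be induced by fasting and fatty acids, had 25.3 and 17.5 TPM. Pdk4 was the lower kinase in both libraries, at 0.164 and 0.0758 of the Pdk2 level, and the log2 ratio of −3.10 ± 0.77 exceeded 2 SD. With n = 2, passing this mark serves only to describe the pair.

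In the wider list for this step, 6 of 9 genes were detected in both libraries. Highest were the mitochondrial pyruvate carrier subunits, Mpc1 at 460 ± 11 TPM and Mpc2 at 157 ± 9.73, and the kinase Pdk3 at 69.4 ± 10.3. Both carrier subunits lay close between libraries, at 468 and 452 TPM for Mpc1 and at 164 and 150.4 for Mpc2. The phosphatase subunits Pdp1 and Pdpr were detected in neither library. Pdp1, which reverses the kinases, had 28 counts in replicate 1 and 0 in replicate 2, and Pdpr had 0 in both. The phosphatase gene Pdp2, named after its values were seen, was detected in replicate 1 at 16.5 TPM and had 0 counts in replicate 2.

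The malate dehydrogenases were the highest members. Mdh1, the cytosolic form of the malate-aspartate shuttle (chr11:21556787-21572367), had 819 TPM in replicate 1 and 1218 in replicate 2. Mdh2, the mitochondrial form of the cycle (chr5:135778480-135790398), had 1102 and 872 TPM. Mdh2 was the higher form in replicate 1 and Mdh1 in replicate 2, so their log2 ratio of −0.03 ± 0.64 had no common sign. Mdh2 ranked 98 among all genes in replicate 1, and Mdh1 ranked 100 in replicate 2.

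Citrate synthase and the isocitrate dehydrogenases opened the cycle. Cs, which joins acetyl-CoA to oxaloacetate (chr10:128337734-128362479), had 270.2 TPM in replicate 1 and 325 in replicate 2. Idh3a, the catalytic subunit of the NAD-dependent isocitrate dehydrogenase (chr9:54586334-54604661), had 465 and 428 TPM. Between libraries Cs differed by 1.2-fold and Idh3a by 1.09-fold. Its partner subunit Idh3b (chr2:130279309-130284547) had 96.3 TPM in replicate 1 and 335 in replicate 2. The other partner, the X-linked Idh3g (chrX:73778963-73786897), had 311 and 199.8 TPM. The partners therefore changed places, with Idh3g higher in replicate 1 and Idh3b in replicate 2, and their log2 ratio of −0.47 ± 1.71 had no common sign. Idh3a exceeded both partners in each library. Idh3b overlaps Nop56 on the other strand, which held 6420 and 5493 counts, and the use of strand in counting is not given in the sources used here.

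Idh2, the NADP-dependent mitochondrial enzyme (chr7:80094846-80115392), had 289 TPM in replicate 1 and 743 in replicate 2. It lay below Idh3a in replicate 1 and above it in replicate 2, a log2 ratio of 0.06 ± 1.04, so no order of the NAD and NADP routes could be given.

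The subunits of the oxoglutarate dehydrogenase complex lay below Cs and Idh3a in both libraries. Ogdh, its E1 (chr11:6291633-6356642), had 156 TPM in replicate 1 and 241 in replicate 2. Dlst, its E2 (chr12:85110833-85134845), had 73.2 and 159 TPM. Dld, the E3 that it shares with pyruvate dehydrogenase (chr12:31331277-31351453), had 108 and 163 TPM. In gene totals all 3 were higher in replicate 2 by 1.5-fold to 2.17-fold. Dlst stayed below Ogdh in both, with a log2 ratio of −0.84 ± 0.34. For Ogdh, part of the rise lay on short transcripts. Ogdh-205, a retained-intron form of 779 bases, had 0.07 and 38.3 TPM, and Ogdh-207 of 702 bases had 0 and 16.9. The transcript Ogdh-201 of 4127 bases had 155 and 179 TPM, close to Dlst in replicate 2.

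Succinyl-CoA ligase was measured with the ATP-forming beta subunit alone. Sucla2, that subunit (chr14:73525319-73596142), had 357 TPM in replicate 1 and 365 in replicate 2. Suclg2, the GTP-forming beta subunit (chr6:95473009-95718800), had 0 counts in both libraries, which allows up to 0.0564 TPM in replicate 1 and 0.0440 in replicate 2. Sucla2 was therefore at least 6325-fold higher in replicate 1 and at least 8297-fold higher in replicate 2. Suclg1, the alpha subunit used by both forms (chr6:73248382-73276911), had 226 and 516 TPM, above Sucla2 in replicate 2 and below it in replicate 1. Fh1, fumarase (chr1:175600374-175625635), had 221 and 245 TPM, close between libraries as a gene total. Its counts were 8377 and 14376. The transcript Fh1-201 of 2636 bases had 117 and 168 TPM, and Fh1-205 of 542 bases had 104 and 76.2.

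All 10 genes of the wider citrate cycle list were detected in both libraries. They were led by the succinate dehydrogenase subunits Sdhb at 812 ± 149 TPM and Sdhd at 617 ± 136. Both were higher in replicate 2, with 706 and 917 TPM for Sdhb and 521 and 713 for Sdhd, while the catalytic subunit Sdha, named after its values were seen, had 426 in replicate 1 and 229 in replicate 2.

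Among the 7 import members, a binding protein and a membrane receptor had the highest mean levels. Fabp3, the heart and muscle fatty acid binding protein (chr4:130308595-130315463), had 356 TPM in replicate 1 and 871 in replicate 2. Its pseudogene Fabp3-ps1 held 89.1 and 279 counts beside 6281 and 19704 for Fabp3, so reads may be shared between them. Fabp3 also overlaps Zcchc17 on the other strand, with 869 counts in replicate 1 and 0 in replicate 2. Cd36, the fatty acid translocase (chr5:17781690-17888801), had 292 and 228 TPM. Cd36 is also a gene of adipocytes, endothelium and macrophages. The marker sums of these cell types were higher in replicate 1, and their part in the Cd36 level was not tested. Single markers were mixed: 6 adipocyte markers were higher in replicate 1 and 1 in replicate 2, with 6 and 4 for endothelium and 4 and 1 for macrophages. Acsl1, the main muscle acyl-CoA synthetase (chr8:46471037-46536051), had 268 and 126 TPM. Fabp3 was thus 2.45-fold higher in replicate 2, and Cd36 and Acsl1 were 1.28-fold and 2.12-fold higher in replicate 1. Scaled to spike-ins, Cd36 turned to the higher side in replicate 2, with a log2 ratio of 0.62, and Acsl1 came close to equal, with −0.09.

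The carnitine shuttle was represented at its first enzyme by the muscle form. Cpt1b, the muscle carnitine palmitoyltransferase of the outer membrane (chr15:89416405-89425863), had 243 TPM in replicate 1 and 223 in replicate 2. Cpt1a, the liver form (chr19:3322334-3385733), had 0.58 TPM from 59 counts in replicate 1 and 0 counts in replicate 2, and was detected in neither by the rule above. Cpt1b exceeded Cpt1a by 419-fold in replicate 1 and at least 9742-fold in replicate 2, the latter a limit for counting error only. A gene of GENCODE M21 named Gm44502 overlaps Cpt1b on the same strand and was not analysed here, while the neighbouring Chkb had 18.7 and 12.3 TPM.

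Later steps of the shuttle varied more. Slc25a20, the carnitine-acylcarnitine carrier of the inner membrane (chr9:108662088-108684641), had 0 counts in replicate 1 and 5081 in replicate 2, where its level was 96.6 TPM. By the limit of 3 counts, here 0.0732 TPM, Slc25a20 was at least 1321-fold higher in replicate 2. The authors' upper credibility bound for it in replicate 1 was higher, at 0.221 TPM, which makes the least fold smaller. Cpt2, which returns acyl groups to CoA in the matrix (chr4:107903981-107923610), had 96.5 TPM in replicate 1 and 26.4 in replicate 2, 3.66-fold higher in replicate 1. These genes moved in opposite directions, while Cpt1b differed by 1.09-fold.

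Of 13 further import genes, 6 were detected in both libraries, 4 in replicate 1 only and 1 in replicate 2 only. Fabp4 and Lpl also stand in the adipocyte marker list. The highest were Fabp4, the adipocyte binding protein, at 797 ± 113 TPM, the acyl-CoA binding protein Dbi at 623 ± 32.2 and Fabp5 at 193 ± 105. Fabp4 exceeded Fabp3 in replicate 1, with 876 against 356 TPM, and was below it in replicate 2, with 717 against 871. The synthetase Acsl6 and Cpt1c, the brain form of the palmitoyltransferase, had 0 counts in both libraries. With Cpt1a, no Cpt1 gene other than Cpt1b passed the detection rule.

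**Figure D3:**
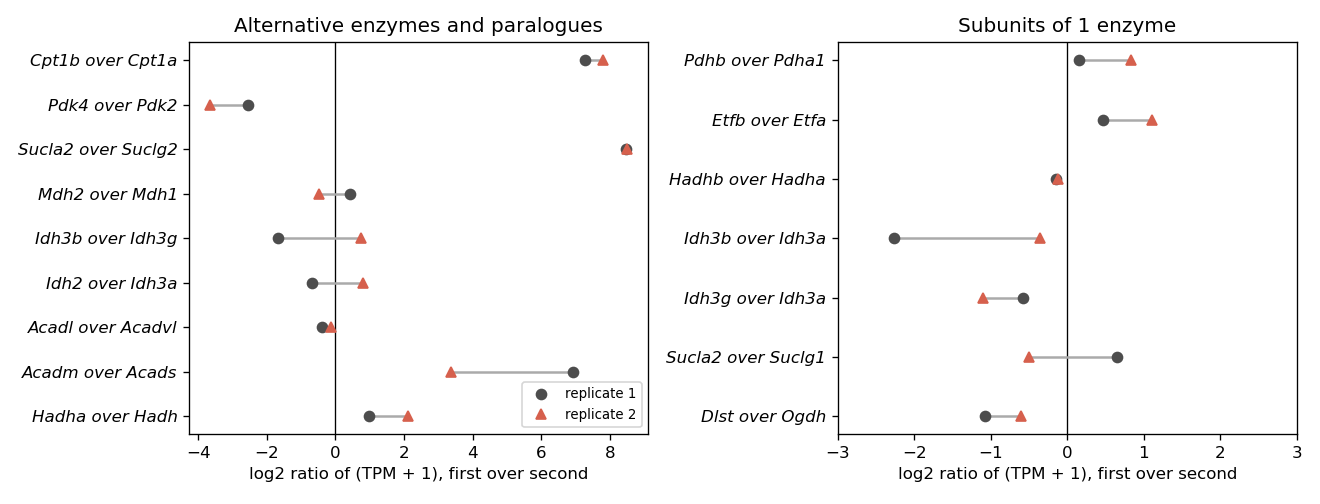
Log2 ratio of TPM + 1 for 9 pairs of paralogues or alternative enzymes (left) and for 7 pairs of subunits of 1 enzyme (right), first gene over second, with circles for replicate 1 and triangles for replicate 2. Cpt1b over Cpt1a and Sucla2 over Suclg2 lie far to the right in both libraries, while Mdh2 over Mdh1, Idh3b over Idh3g and Idh2 over Idh3a cross 0.

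The acyl-CoA dehydrogenases, which start each turn of beta oxidation, declined in gene totals with the length of chain they act on. Acadvl, for very long chains (chr11:70010183-70015411), had 404 TPM in replicate 1 and 415 in replicate 2. Acadl, for long chains (chr1:66830839-66863277), had 308 and 379 TPM. Acadm, for medium chains (chr3:153922357-153944632), had 121 and 212 TPM. Acads, for short chains (chr5:115110299-115119346), had 0 counts in replicate 1 and 1086 in replicate 2, where its level was 19.7 TPM. By gene totals the order Acadvl, Acadl, Acadm, Acads was the same in both libraries. Acadl over Acadvl, at a log2 ratio of −0.26 ± 0.18, did not exceed 2 SD. On coding transcripts Acadvl and Acadl were nearly equal in replicate 1, and Acadl was higher in replicate 2. Acadvl-202 had 310 and 283 TPM, Acadvl-201 had 0.37 and 50.7, and Acadl-201 had 308 and 379. Acadm over Acads gave 5.15 ± 2.53, just past 2 SD, and with a pseudocount of 0.1 it gave 6.83 ± 4.83, which is not past it. Acadvl overlaps Dvl2 on the other strand, with 331 and 30.1 counts.

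The later steps of the spiral include the trifunctional protein and the short-chain enzymes. Hadha, its alpha subunit with hydratase and dehydrogenase activity (chr5:30118304-30155162), had 242 TPM in replicate 1 and 322 in replicate 2. Hadhb, its beta subunit with thiolase activity (chr5:30155248-30184593), had 218 and 295 TPM. By gene totals, these subunits lay closer in each library than the other 6 subunit pairs compared, narrowly so in replicate 1. Hadhb was at 0.900 and 0.916 of Hadha, a log2 ratio of −0.14 ± 0.02. On coding transcripts they lay far apart, with Hadha-205 at 31.0 and 61.6 TPM and Hadhb-203 at 184 and 191. A further coding form, Hadhb-201, had 10.6 TPM in replicate 1 and 95.2 in replicate 2. Hadh, the short-chain hydroxyacyl-CoA dehydrogenase (chr3:131233419-131272101), had 123 and 73.3 TPM. Echs1, the short-chain enoyl-CoA hydratase (chr7:140105710-140116476), had 64.9 and 25.5 TPM. Hadha exceeded Hadh in both libraries, by 1.96-fold and 4.4-fold, though their log2 ratio of 1.54 ± 0.82 did not exceed 2 SD. On coding transcripts alone the order was the reverse, with Hadha-205 at 31.0 and 61.6 TPM and Hadh-201 at 123 and 71.95.

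Hadha and Hadhb lie head to head on chromosome 5, with 85 bases between the gene bodies in GENCODE M21. The RefSeq window around the Hadhb start is shown because most of it also belongs to the Hadha window on the opposite strand. It covers 250 bases before to 50 after the start, on GRCm38.p6, forward strand, chr5:30155003-30155302, and the capitals mark the 228 bases that both windows share:
Hadhb window: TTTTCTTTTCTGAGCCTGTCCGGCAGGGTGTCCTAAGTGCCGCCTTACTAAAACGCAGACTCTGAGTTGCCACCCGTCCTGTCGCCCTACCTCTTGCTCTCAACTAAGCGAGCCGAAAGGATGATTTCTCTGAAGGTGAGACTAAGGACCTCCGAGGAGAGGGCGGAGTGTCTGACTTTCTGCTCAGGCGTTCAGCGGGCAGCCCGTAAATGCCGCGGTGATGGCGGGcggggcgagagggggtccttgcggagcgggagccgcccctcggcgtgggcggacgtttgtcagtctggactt

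The shared stretch, chr5:30155003-30155230, had a GC content of 57.0%. RefSeq windows were found for 35 of the 37 members, 42 windows in all, with a median GC content of 60.5% against 52.7% over all 32851 windows. The letters TATAA, read on both strands, occurred in 0 of the 42 member windows and in 24.9% of all windows. The nuclear receptor motif AAGGTCA, read on both strands, occurred in 2 member windows, of Acadm and Ogdh, and in 4.72% of all windows. These matches describe the letters only.

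Electrons from the dehydrogenases pass to the electron transfer flavoprotein. Etfb, its beta subunit (chr7:43444083-43457800), had 526 TPM in replicate 1 and 721 in replicate 2. Etfa, its alpha subunit (chr9:55454508-55512243), had 381 and 335 TPM. Etfb was the higher subunit in both, by 1.38-fold and 2.15-fold, a log2 ratio of 0.78 ± 0.45 that did not exceed 2 SD. Etfdh, the membrane oxidoreductase that hands the electrons to ubiquinone (chr3:79603788-79629500), had 13.3 TPM from 86 counts in replicate 1 and 97.2 TPM from 6865 counts in replicate 2.

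Of 11 further beta oxidation genes, 8 were detected in both libraries and 3 in replicate 2 only. Acaa2, the mitochondrial thiolase, led with 303 TPM in replicate 1 and 873 in replicate 2 (588 ± 403). It was followed by the acetyl-CoA acetyltransferase Acat1 at 229 ± 105 and the thioesterase Acot13 at 167 ± 26.8. Acadsb, Eci1 and Decr1, which act on branched and unsaturated chains, were the genes with 0 counts in replicate 1, and they had 4593, 1333 and 4272 counts in replicate 2. They are named because the count is 3, after their values were seen.

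Transcript estimates showed the same main form for most members in both libraries. Among 26 members detected in both with more than 1 transcript, 23 (88.5%) had the same leading transcript, beside 65.6% of 3032 such genes. Transcripts annotated as protein coding held 92.3% of member TPM in each library, and 81.7% and 83.3% over all genes detected in both. That wider set was not limited to protein-coding genes, so its share is not like for like with that of the members. Cpt1b-201 made 88.3% and 98.6% of Cpt1b, and Pdha1-201 made 99.8% and 98.9% of Pdha1.

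The members with a different leading transcript were Sucla2, Cd36 and Etfdh. Sucla2 was 66.8% Sucla2-203 in replicate 1 and 62.6% Sucla2-201 in replicate 2, both coding, although its gene total differed by 1.02-fold. For Cd36, Cd36-203 led in replicate 1 with 46.5% and Cd36-204 in replicate 2 with 49.9%. All the Etfdh level of replicate 1 was on transcripts not annotated as coding, with 99.3% on Etfdh-203 of 357 bases, while Etfdh-201 of 2377 bases held 87.8% in replicate 2. Because TPM divides by length, Etfdh differed by 7.29-fold in TPM but by 86 against 6865 in counts.

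Hadha stood apart in its coding share. Only 12.8% of Hadha TPM in replicate 1 and 19.1% in replicate 2 was on Hadha-205, the coding transcript of 4020 bases. Hadha-201, annotated as a processed transcript of 2554 bases, held 56.3% and 40.9%, and Hadha-204 of 323 bases held 30.9% and 40.0%. Mdh2 had 18.6% and 29.8% on Mdh2-203, which is annotated for nonsense-mediated decay. Acadvl had 22.4% and 12.04% on Acadvl-203, a retained-intron form of 538 bases. Short transcripts weigh heavily in TPM, and the split of reads between overlapping transcripts is an estimate.

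**Figure D4:**
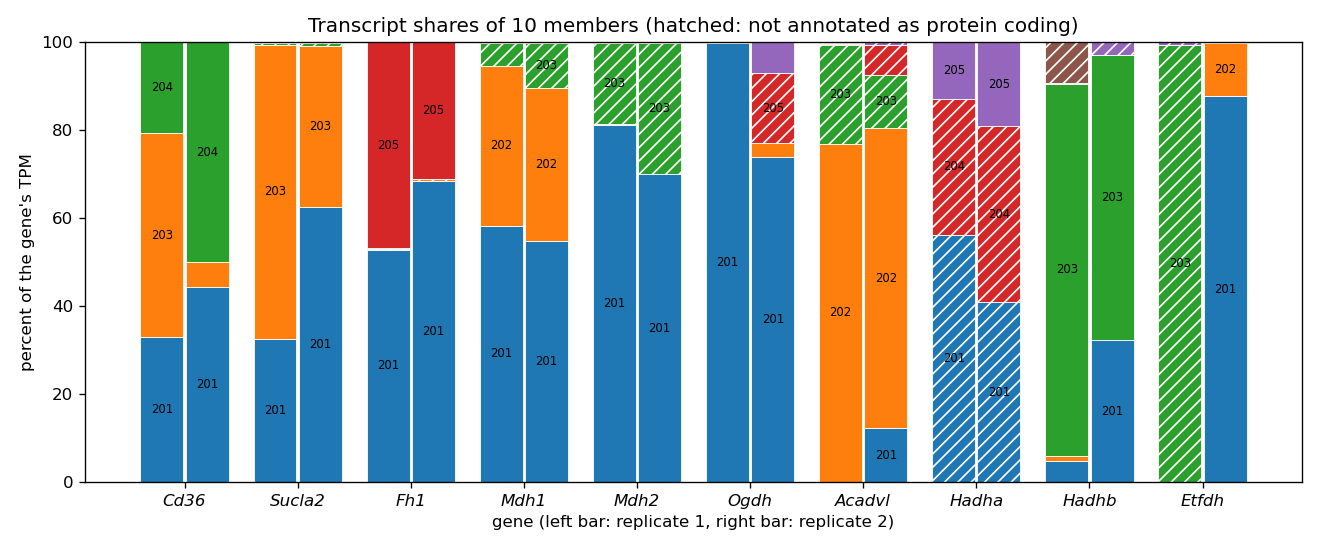
Percent of each gene's TPM assigned to each of its transcripts for 10 members, left bar replicate 1 and right bar replicate 2, with the transcript number printed where it holds at least 10% and hatching for transcripts not annotated as protein coding. Hadha is mostly hatched in both libraries, and Etfdh is hatched in replicate 1 and coding in replicate 2.

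Between libraries, the ratios of the members spread less than those of all genes. Members also had higher levels, and the part of level in this was not tested. Log2 ratios of TPM + 1, replicate 2 over replicate 1, were centred on the median of 10002 genes with at least 5 counts in 1 library, which lay at 0.09. The median of 36 members was 0.19 after centring, with 21 above 0. Suclg2 was left out by the count filter. When 25 spike-ins (10 or more counts in each library) set the centre instead, the member median was 1.26 with 33 above 0, and the median of all genes was 1.07, so directions between libraries depend on the scaling. By step, over all members without the count filter, the centred medians were 0.33 for the citrate cycle and 0.32 for beta oxidation. They were 0.17 for pyruvate entry and −0.45 for import. The citrate cycle value includes Suclg2, which has 0 counts and enters at −0.09 through the centring alone. Without Suclg2 the middle citrate cycle member was Mdh1, at 0.48.

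A 4-fold difference was passed by 4 of 36 members, Dlat, Slc25a20, Acads and Etfdh, beside 46.1% of all 10002 genes. All 4 were higher in replicate 2. Among genes with a mean of at least 100 TPM, 0 of 27 members and 9.58% of 1190 genes passed it. Of the 32 members detected in both, 23 (71.9%) lay within 2-fold, beside 55.5% of 4356 genes, and their SD was 0.92, beside 1.56 for those genes and 0.91 for the 25 spike-ins. Closest in gene totals were Acadvl, Sucla2 and Fh1, with centred ratios of −0.05, −0.05 and 0.06.

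Loss of a gene from a single library also touched few members. Of 35 members with at least 1000 counts in a library, 3 had 0 counts in the other, Dlat, Slc25a20 and Acads, beside 28.3% of 6221 genes. All 3 were missing from replicate 1, the library with fewer counts and the larger share of spike-ins. The part of depth in their loss was not tested. Members also had higher levels than the typical detected gene, and the part of level in the contrast with all genes was not tested.

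**Figure D5:**
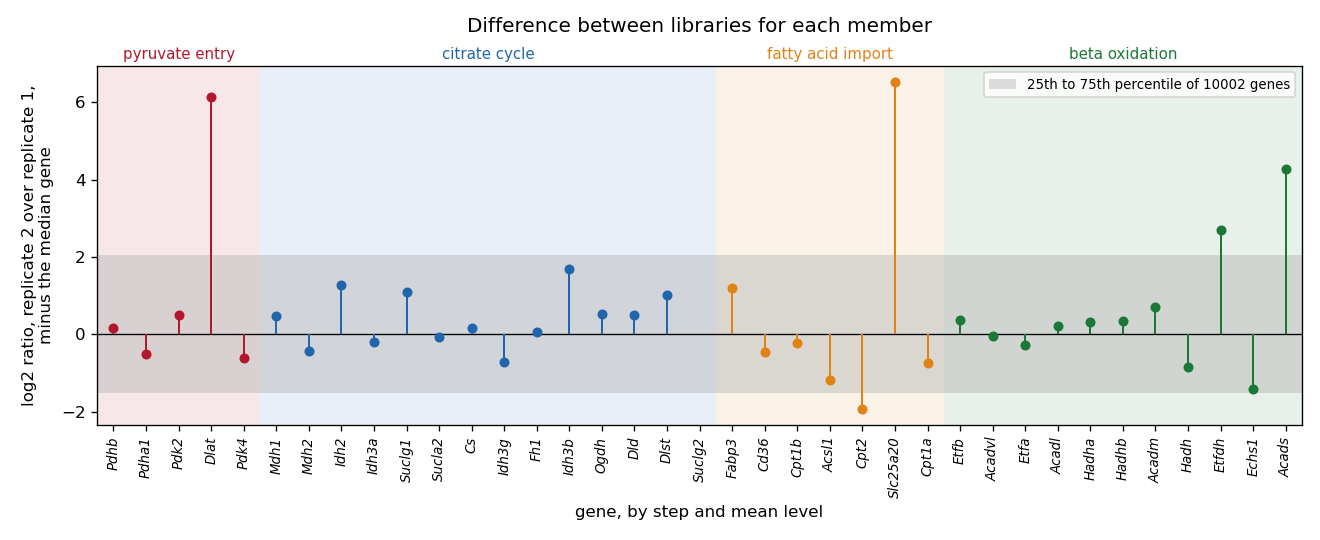
Log2 ratio of TPM + 1 in replicate 2 over replicate 1 for 36 members, minus the median gene, by step, with a grey band from the 25th to the 75th percentile of 10002 genes (−1.51 to 2.05). Dlat, Slc25a20, Acads and Etfdh lie above the band and Cpt2 below it, while the other members drawn lie inside; Suclg2, with 0 counts, has no point.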

How the data were processed

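The authors deposited gene and transcript tables for each library. Per the file headers these hold expected counts (estimated reads, with posterior mean counts), TPM and FPKM, and the deposited transcript tables also give the percent of a gene's TPM on each transcript. Reads were assigned to mm10 with GENCODE M4, per the text deposited with the files; for the aligner, the counter and the use of strand: not given in the sources used here. The RNA was extracted with the mirVana kit and libraries followed a SmartSeq protocol, per the labels' protocols, without molecular identifiers, so limits cover counting error only. Credibility bounds of TPM deposited by the authors had a median width of 3.82% of TPM over members detected in both libraries, and 41.8% for Etfdh.

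Symbols came from the GENCODE M21 table and positions from its annotation on GRCm38 (mm10), and promoter windows from RefSeq. The pseudocount was 1. Paralogue ratios were said to exceed the spread where the sign agreed and the mean was over 2 SD. All members are named. Of each wider list, the 3 highest by mean TPM and enzymes detected in neither library are named, except a few genes that are not reported here. Members and lists were chosen with earlier results of these data known. Transcript shares, subunit pairs and the levels of 10 and 100 TPM were added after values were seen. Alternatives changed thresholds, depth, unit, estimate, pseudocount and scaling. edgeR 4.0.16 in R 4.3.3 gave TMM factors only; other steps used Python 3.11.15, numpy 2.4.6, pandas 2.3.3 and matplotlib 3.10.9. The ratio calculation was tested on simulated counts.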

Additional observations from a re-analysis of the deposited data

How the results depend on the processing

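Of 37 alternatives in unit, estimate, threshold or membership for the sums and ratios, 29 left the mean within 1 SD, and no ratio past 2 SD changed sign. For counts and the member median, which have no SD, a count within 1.5-fold or a median within 0.1 was taken as unmoved, and 11 of 18 alternatives met this. Ratios against a gene at or near 0 moved with the pseudocount or unit. Cpt1b over Cpt1a went from a log2 of 7.54 to 9.80 with a pseudocount of 0.1 and 11.11 with counts. Sucla2 over Suclg2 went from 8.50 to 11.82, 14.12 with counts and 8.45 with posterior means, and Acadm over Acads to 8.03 with counts. The member median between libraries of 0.19 became 1.26 on spike-ins, 0.31 with TMM scaling and 0.30 where both libraries had 5 or more counts. The 4 members past 4-fold became 9 on spike-ins (beside 49.8% of genes), 1 under that count rule (22.6%), 12 at 2-fold (64.1%) and 0 at a mean of at least 100 TPM (9.58%). Without Mdh1 and Mdh2 the citrate cycle summed to 3147 TPM, and without Cd36 and Fabp3 the import step summed to 540.0, below pyruvate entry; both were chosen after seeing the data. Leaving out a library says nothing on the stability of sums and ratios, since with n = 2 it always moves a mean by less than 1 SD, and it leaves no difference between libraries. Alone, replicate 1 detected 32 members and replicate 2 detected 35.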

Other observations

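Of 12 regulators of fatty acid oxidation and mitochondrial fuel use, 4 were detected in both libraries, 3 in replicate 1 only and 1 in replicate 2 only. The coactivator Ppargc1b stood at 50.01 TPM in replicate 1 against 15.4 in replicate 2. Ppargc1a, its relative known for driving mitochondrial biogenesis, had 33.4 TPM in replicate 1 and 0 counts in replicate 2. The nuclear receptor genes Ppara, Esrra and Esrrg had 0 counts in both libraries. Acacb, which makes the malonyl-CoA that inhibits Cpt1 enzymes, had 26.7 and 12.1 TPM. Ucp2, an uncoupling protein gene also active in immune cells, had 280.03 and 34.2 TPM, beside macrophage marker sums of 633 and 271 TPM, and the muscle form Ucp3 had 8.37 and 32.1. The part of macrophage RNA in Ucp2 was not tested.

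Ketone use was represented by Oxct1, the enzyme that activates acetoacetate, at 125 TPM in replicate 1 and 59.7 in replicate 2. Bdh1, a hydroxybutyrate dehydrogenase, had 1 count in replicate 1 and 0 in replicate 2.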
